A study of Homo sapiens with 12 samples.

Results

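The 10 genes described here are NFE2L2, which encodes the transcription factor NRF2, and 9 genes that textbooks list as its antioxidant targets: NQO1, HMOX1, GCLM, GCLC, SLC7A11, TXNRD1, SRXN1, AKR1C1 and AKR1B10. They were chosen by symbol from the 60603 genes of a count table, and each was found there under 1 identifier. The choice was made with earlier results of these data in view, among them that NQO1 had changed with the inducer in NS1 cells. The comparisons that contain the treated NS1 libraries are therefore given for these genes as a description, by levels, fold changes and counts past a threshold, without a p-value. Untreated NS1 libraries entered that known result too, so the p-values of untreated NS1 against untreated WT cells are not independent of the choice.

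The study measured poly(A) RNA in the human bladder carcinoma line T24 as part of a transcriptome analysis of AlissAID, a degron system in which an auxin analogue recruits a target protein for degradation. Of the 12 libraries, 3 came from WT T24 cells without treatment, 3 from WT T24 cells given 5-Ad-IAA (the auxin analogue, called the inducer below), 3 from NS1 T24 cells without treatment and 3 from NS1 T24 cells given 5-Ad-IAA. All groups share the T24 background. The labels do not spell out what NS1 stands for, nor whether the NS1 cells are a single clone. The replicates are numbered 1 to 3 in each group. Nothing in the labels says that they came from separate cultures, so the p-values measure the spread between these libraries, which may be technical.

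NRF2 is held at a low level in resting cells by KEAP1, an adaptor that hands it to a CUL3 ubiquitin ligase for degradation by the proteasome. When oxidants or electrophiles modify KEAP1, NRF2 escapes, pairs with a small MAF protein and binds the antioxidant response element (ARE), where the repressor BACH1 competes with it. Its targets make glutathione, run the thioredoxin cycle, detoxify quinones and carbonyls, supply NADPH and handle haem and iron, and in bladder and other carcinomas the pathway is known to be active in part of the tumours. NRF2 is controlled mainly as a protein, which RNA-seq does not measure.

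Promoter windows of 250 bases before and 50 after a start site were taken from RefSeq on GRCh38.p14 for the 7 of 10 genes with an entry (NFE2L2, NQO1, GCLM, GCLC, TXNRD1, SRXN1 and AKR1C1, in 9 windows). Each window was searched on both strands for the ARE core TGACNNNGC and for the AP-1 site TGANTCA, 2 motifs that can overlap within 1 element. The ARE core was present in the GCLM window and in both TXNRD1 windows, and was not found in the windows of NFE2L2, NQO1, GCLC, SRXN1 and AKR1C1. Of all 35116 windows of the same length, 13.3% held the ARE core and 7.71% the AP-1 site, which none of the 9 windows held. The upstream parts below are printed 5′ to 3′ on the gene's strand, with the matches in capitals, for the 2 genes that held a match and for NQO1 and AKR1C1, targets without one whose levels are described further on. They lie at chr1:93909431-93909680 on the minus strand for GCLM, chr12:104215529-104215778 and chr12:104286782-104287031 on the plus strand for TXNRD1, chr16:69726561-69726810 on the minus strand for NQO1, and chr10:4963165-4963414 on the plus strand for AKR1C1.
GCLM: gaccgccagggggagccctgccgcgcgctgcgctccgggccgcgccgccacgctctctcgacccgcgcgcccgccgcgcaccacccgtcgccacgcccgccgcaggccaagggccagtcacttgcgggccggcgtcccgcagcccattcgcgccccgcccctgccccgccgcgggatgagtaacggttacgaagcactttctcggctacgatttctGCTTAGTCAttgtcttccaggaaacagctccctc
TXNRD1, window 1: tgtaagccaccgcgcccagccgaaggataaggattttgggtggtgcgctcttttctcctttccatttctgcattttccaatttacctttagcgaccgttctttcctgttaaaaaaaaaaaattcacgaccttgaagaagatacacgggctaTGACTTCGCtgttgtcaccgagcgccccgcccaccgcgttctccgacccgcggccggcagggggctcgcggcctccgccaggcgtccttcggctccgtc
TXNRD1, window 2: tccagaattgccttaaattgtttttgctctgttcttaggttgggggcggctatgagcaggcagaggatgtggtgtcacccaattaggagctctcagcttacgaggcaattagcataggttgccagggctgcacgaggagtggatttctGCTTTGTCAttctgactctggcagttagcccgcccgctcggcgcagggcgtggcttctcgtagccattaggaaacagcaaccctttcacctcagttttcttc
NQO1: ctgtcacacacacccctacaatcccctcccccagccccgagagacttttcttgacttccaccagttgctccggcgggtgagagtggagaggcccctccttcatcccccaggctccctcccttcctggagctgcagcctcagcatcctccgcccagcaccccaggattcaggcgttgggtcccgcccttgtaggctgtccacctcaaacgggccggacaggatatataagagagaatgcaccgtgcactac
AKR1C1: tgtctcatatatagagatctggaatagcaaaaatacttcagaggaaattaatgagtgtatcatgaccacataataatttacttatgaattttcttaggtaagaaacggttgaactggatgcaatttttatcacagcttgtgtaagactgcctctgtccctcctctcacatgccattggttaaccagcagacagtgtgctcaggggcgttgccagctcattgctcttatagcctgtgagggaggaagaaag
The GCLM match lies 34 to 26 bases before the start site and reads TGACTAAGC on the other strand. In TXNRD1 the matches lie 99 to 91 bases before the upstream start site and 102 to 94 bases before the downstream one. A further TXNRD1 match begins 8 bases before the upstream start site and runs across it, so it is not in capitals. A match of these letters is a description of the window and says nothing about binding by NRF2, and elements farther away were not searched.

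Each library held between 10593934 and 20266996 counts. The test covered the 17775 genes that passed a filter on low counts. NS1 and WT libraries lay apart on the first principal component (49.3% of the variance), and the replicate 1 libraries lay apart from replicates 2 and 3 on the second (14.5%). Deviations from the group means correlated between same-numbered treated and untreated libraries of a line (0.256 to 0.752). With replicate 1 apart, this does not establish a pairing of replicates 2 and 3, which fits with a replicate block within each line assume. Of 14 urothelial and epithelial markers, KRT7 lay between 1530 and 6020 CPM, KRT8 between 1160 and 3070 and KRT18 between 572 and 1340, TP63, KRT5 and UPK3A were at 0 in all 12, and CDH1 did not exceed 0.0967 CPM. The 14 markers summed to 4380 to 6070 CPM in untreated WT, 5230 to 6020 in treated WT, 4130 to 7650 in untreated NS1 and 5200 to 11100 in treated NS1 libraries, and the 4 leukocyte markers to between 0.432 and 2.71 CPM. The 3 mesenchymal markers VIM, CDH2 and FN1 summed to 3730 to 9020 CPM in untreated WT and 2170 to 6880 in treated WT libraries. In NS1 libraries they summed to 3710 to 4170 CPM untreated and 4860 to 7430 treated. The 3 endothelial markers summed to between 0.0617 and 4.07 CPM. The part of these markers in the results was not tested. In bulk libraries such as these, fewer cells that express a gene and less RNA per cell cannot be told apart.

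Levels are given as normalised CPM, counts divided by the TMM-scaled library size, a scale on which 1 gene can be compared between libraries. To order the genes against each other, the CPM were divided by the kilobases of each gene's merged exons in GENCODE 29. On this scale untreated WT cells had NQO1 at 97.8 ± 5.39 CPM per kb (SD, n = 3), followed by TXNRD1 at 34.5 ± 4.55. SRXN1 at 23.3 ± 1.48 and HMOX1 at 19.5 ± 5.51 CPM per kb overlapped, as did GCLM at 9.90 ± 0.93 and NFE2L2 at 9.61 ± 0.265. SLC7A11 at 3.62 ± 1.48, AKR1C1 at 2.00 ± 1.44 and GCLC at 1.33 ± 0.0263 CPM per kb came last, each overlapping the next. In treated NS1 cells NQO1 was still first at 186 ± 37.7 CPM per kb, but HMOX1, at 76.7 ± 26.1, stood above TXNRD1 at 54.0 ± 6.03, with ranges that overlapped, and AKR1C1, at 7.88 ± 2.39, overlapped GCLM at 8.78 ± 1.27. AKR1B10, an aldo-keto reductase often abundant in NRF2-active tumours, had 4 counts in WT replicate 1, 1 count in treated WT replicate 1 and none in the other 10 libraries, where a count of 0 allows up to 0.156 to 0.29 CPM (3 counts). This floor covers counting error only. AKR1B10 did not pass the count filter, so 9 of the 10 genes were tested.

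**Figure D1:**
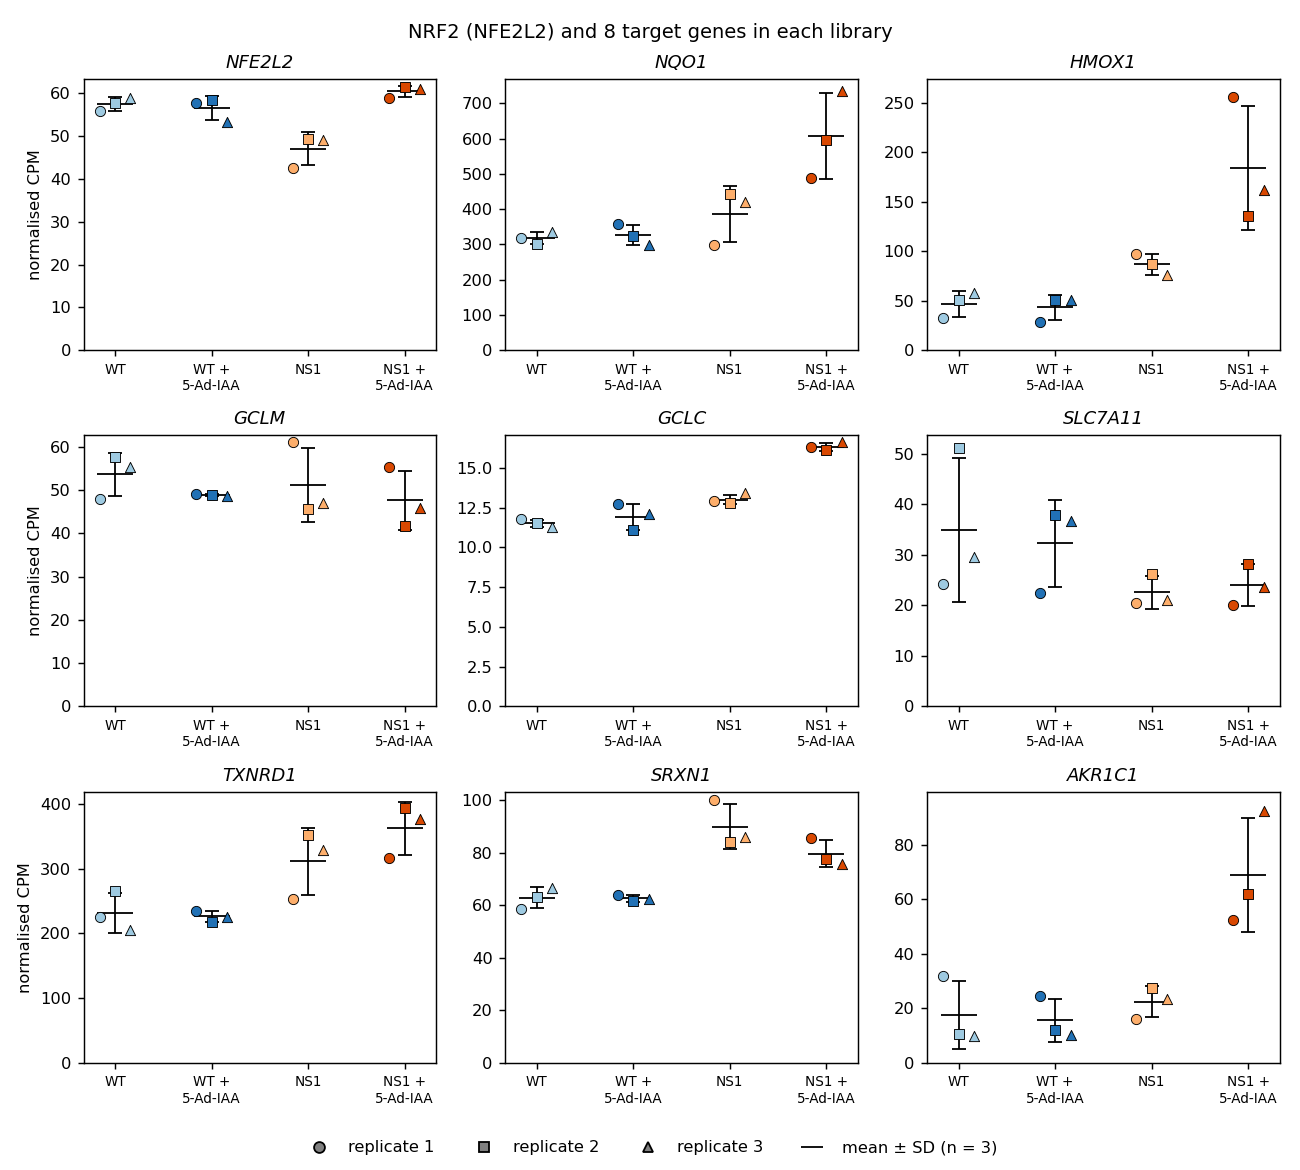
Normalised CPM of NFE2L2 and 8 target genes (y axes, linear from 0) in each of the 12 libraries, by group (x axes); symbols are replicates 1 to 3 and bars the mean ± SD (n = 3). In treated NS1 cells NQO1 lies between 489 and 734, HMOX1 between 136 and 256 and AKR1C1 between 52.3 and 92.6 CPM, above every library of the other 3 groups.

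NFE2L2 (ENSG00000116044.16, chr2:177227595-177392697 in GENCODE 29, minus strand) is the factor itself. Its normalised CPM in replicates 1 to 3 were 55.8, 57.7 and 59 in untreated WT, 57.8, 58.5 and 53.4 in treated WT, 42.6, 49.4 and 49.2 in untreated NS1, and 58.9, 61.4 and 61.1 in treated NS1 cells. The untreated NS1 libraries were the 3 lowest of the 12, and the treated NS1 libraries lay just above the treated WT libraries. With the inducer NFE2L2 was 0.36 ± 0.092 log2 higher in NS1 cells (log2 fold change ± SE), with replicate ratios of 1.38, 1.24 and 1.24, and in WT cells its log2 fold change was -0.02 ± 0.091 (edgeR adjusted p = 1). Between the lines its log2 fold change was -0.29 ± 0.092 without inducer (edgeR adjusted p = 0.0568, lower in 3 of 3 same-numbered libraries) and 0.09 ± 0.091 with it.

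NQO1 (ENSG00000181019.13, chr16:69706996-69726951, minus strand) reduces quinones and is the most used readout of NRF2. Its CPM were 317, 301 and 336 in untreated WT, 357, 323 and 299 in treated WT, 297, 442 and 420 in untreated NS1, and 489, 597 and 734 in treated NS1 cells. The 3 treated NS1 libraries were the highest of the 12, and untreated NS1 replicate 1 was the lowest. With the inducer NQO1 was 0.65 ± 0.165 log2 higher in NS1 cells, by 1.65, 1.35 and 1.75 times in the 3 replicates. In WT cells its log2 fold change was 0.04 ± 0.165 (edgeR adjusted p = 1), and untreated NS1 against untreated WT gave 0.28 ± 0.165 (edgeR adjusted p = 0.298), with ranges that overlapped. NQO1 shares 575 exon bases with AC092115.2 on the other strand, which had 5689 counts over the 12 libraries against 69789 for NQO1.

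HMOX1 (ENSG00000100292.17, chr22:35380361-35394214, plus strand) encodes haem oxygenase, which breaks haem down to biliverdin, iron and carbon monoxide and answers to BACH1 as well as to NRF2. Its CPM were 32.2, 50.5 and 58 in untreated WT, 28.6, 50.3 and 50.5 in treated WT, 97.4, 87.4 and 76 in untreated NS1, and 256, 136 and 162 in treated NS1 cells. The groups formed 3 steps that did not overlap, with both WT groups lowest, untreated NS1 between and treated NS1 highest. Replicate 1 was the lowest library in both WT groups and the highest in both NS1 groups. With the inducer HMOX1 was 1.09 ± 0.269 log2 higher in NS1 cells, by 2.62, 1.56 and 2.13 times in the 3 replicates, and in WT cells its log2 fold change was -0.12 ± 0.273 (edgeR adjusted p = 1). Untreated NS1 cells had 0.90 ± 0.272 log2 more than untreated WT cells (edgeR adjusted p = 0.0469, higher in 3 of 3). That call was lost when any 1 of the 6 libraries was left out, with adjusted p from 0.0514 to 0.139.

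Glutathione synthesis was represented by the 2 subunits of glutamate-cysteine ligase and by the cystine importer. GCLC (ENSG00000001084.13, chr6:53497341-53616970, minus strand), the catalytic subunit, had CPM of 11.8, 11.5 and 11.3 in untreated WT, 12.7, 11.1 and 12.1 in treated WT, 12.9, 12.8 and 13.4 in untreated NS1, and 16.3, 16.1 and 16.6 in treated NS1 cells. Its level was low but its replicates were close, and the treated NS1 libraries lay above all the others. With the inducer it was 0.33 ± 0.106 log2 higher in NS1 cells, by 1.26, 1.26 and 1.24 times, which did not pass the threshold without the pairing of replicates and did pass with a replicate block within each line (0.33 ± 0.095). In WT cells its log2 fold change was 0.05 ± 0.108 (edgeR adjusted p = 1).

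GCLM (ENSG00000023909.10, chr1:93885205-93909456, minus strand), the regulatory subunit, whose promoter window above holds an ARE core, had CPM of 48, 57.7 and 55.3 in untreated WT, 49, 48.8 and 48.6 in treated WT, 61, 45.5 and 47 in untreated NS1, and 55.2, 41.7 and 45.8 in treated NS1 cells. All 4 groups overlapped, and with the inducer the log2 fold change was -0.10 ± 0.135 in NS1 and -0.14 ± 0.135 in WT cells (edgeR adjusted p = 1 in WT). SLC7A11 (ENSG00000151012.13, chr4:138164097-138242349, minus strand), the cystine and glutamate exchanger, had CPM of 24.2, 51.1 and 29.5 in untreated WT, 22.4, 37.9 and 36.7 in treated WT, 20.4, 26.3 and 21 in untreated NS1, and 20, 28.2 and 23.7 in treated NS1 cells. Its WT libraries varied by more than the lines differed. The log2 fold change of untreated NS1 against untreated WT was -0.63 ± 0.264 (edgeR adjusted p = 0.141), and the change with the inducer was 0.08 ± 0.266 in NS1 and -0.12 ± 0.26 in WT cells (edgeR adjusted p = 1 in WT).

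In the thioredoxin system, TXNRD1 (ENSG00000198431.16, chr12:104215779-104350305, plus strand) reduces thioredoxin with NADPH. Its CPM were 225, 265 and 205 in untreated WT, 234, 218 and 225 in treated WT, 253, 351 and 329 in untreated NS1, and 316, 393 and 377 in treated NS1 cells. Untreated NS1 libraries lay mostly above WT, with untreated NS1 replicate 1 within the WT range, and the 2 NS1 groups overlapped. The log2 fold change of untreated NS1 against untreated WT was 0.42 ± 0.139 (edgeR adjusted p = 0.0626, higher in 3 of 3), and with the inducer TXNRD1 moved by 0.22 ± 0.138 in NS1 and by -0.04 ± 0.139 in WT cells (edgeR adjusted p = 1 in WT).

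SRXN1 (ENSG00000271303.1, chr20:646615-653370, minus strand) encodes sulfiredoxin, which repairs overoxidised peroxiredoxins. Its CPM were 58.6, 63.3 and 66.5 in untreated WT, 64, 61.6 and 62.2 in treated WT, 99.9, 84.1 and 85.9 in untreated NS1, and 85.4, 77.6 and 75.6 in treated NS1 cells. All 6 NS1 libraries lay above all 6 WT libraries, and each treated NS1 library lay below its untreated partner. Untreated NS1 cells had 0.52 ± 0.0989 log2 more SRXN1 than untreated WT cells (edgeR adjusted p = 0.00507, higher in 3 of 3), a call that was kept when any 1 of the 6 libraries was left out (adjusted p from 0.0098 to 0.0222) and lost without replicate 2 or without replicate 3 in every group (up to 0.109). With the inducer the log2 fold change was -0.18 ± 0.0983 in NS1 cells, opposite in sign to NQO1, HMOX1 and AKR1C1 and not past the threshold, and -0.002 ± 0.099 in WT cells (edgeR adjusted p = 1). SRXN1 shares 2292 exon bases on the same strand with AL121758.1, which had 11044 counts over the 12 libraries against 12762 for SRXN1, so reads could have been assigned to either.

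AKR1C1 (ENSG00000187134.14, chr10:4963253-4983283, plus strand) encodes an aldo-keto reductase of steroids and lipid aldehydes. Its CPM were 32, 10.5 and 9.95 in untreated WT, 24.7, 11.9 and 10.2 in treated WT, 16.2, 27.6 and 23.6 in untreated NS1, and 52.3, 62.2 and 92.6 in treated NS1 cells. Both WT replicate 1 libraries lay above their partners, and the untreated NS1 replicate 1 library lay below. With the inducer AKR1C1 was 1.62 ± 0.43 log2 higher in NS1 cells, by 3.22, 2.25 and 3.93 times, the largest fold among the 9 tested genes. In WT cells its log2 fold change was -0.18 ± 0.436 (edgeR adjusted p = 1). Untreated NS1 against untreated WT gave 0.32 ± 0.434 (edgeR adjusted p = 0.684). This value was 1.32 (edgeR adjusted p = 0.000799) without replicate 1 in every group and -0.109 (edgeR adjusted p = 0.941) without replicate 2. AKR1C1, AKR1C2 and AKR1C3 are neighbours of similar sequence, and the counting could have split reads between them.

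**Figure D2:**
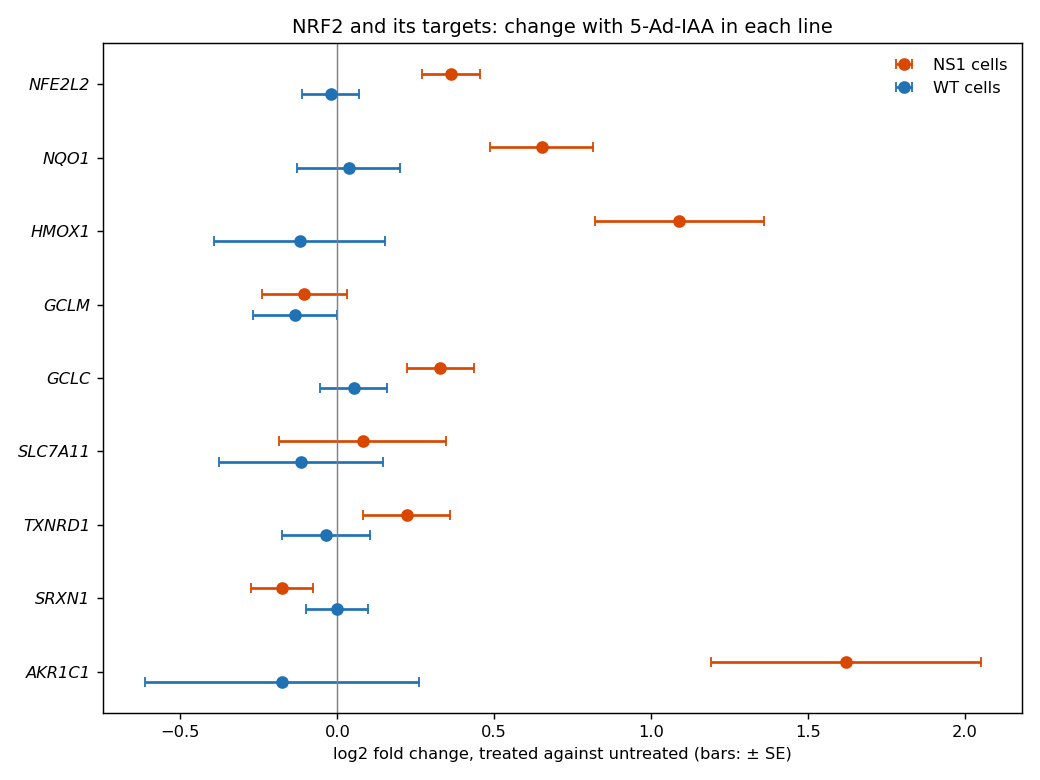
Log2 fold change with 5-Ad-IAA (x axis, treated against untreated, bars ± SE) of NFE2L2 and 8 targets (y axis) in NS1 and in WT cells, from the edgeR fit of 12 libraries. In NS1 cells AKR1C1 (1.62), HMOX1 (1.09) and NQO1 (0.65) lie farthest to the right and SRXN1 (-0.18) farthest to the left, and in WT cells all 9 lie between -0.18 and 0.05.

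Counted over the set, 4 of the 9 tested genes passed an edgeR adjusted p under 0.05 as higher with the inducer in NS1 cells (NFE2L2, NQO1, HMOX1 and AKR1C1) and none as lower. Of all 17775 genes, 6.15% passed in either direction, 2.76% as higher and 3.39% as lower. Because this comparison was known when the genes were chosen, nothing is read from the count. Their median log2 fold change was 0.33, against 0.006 over all genes. The treated and untreated NS1 libraries did not overlap for 5 of the 9 genes, all higher with the inducer (the 4 above and GCLC), where 27.2% of all genes had no overlap, 13.2% as higher. With the replicate block within each line 5 of the 9 passed, GCLC being the added gene, where 25.9% of all genes passed, 13% as higher. Without replicate 1 in every group 3 passed (NQO1, HMOX1 and AKR1C1), and leaving out 1 NS1 library at a time left between 0 and 2. Without replicate 2 or without replicate 3 no gene of the table passed.

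In WT cells the same inducer gave no call among the 9 genes by edgeR, and none among all 17775 genes (0% called), of which 94 had an unadjusted p under 0.05. DESeq2 also called none, with 22 genes at an unadjusted p under 0.05. The 9 log2 fold changes ran from -0.18 to 0.05 with a median of -0.04, and all 9 genes had overlapping groups, where 3.41% of all genes had none (1.68% as higher). The median of the absolute change was 0.05 for the 9 genes and 0.07 over all genes.

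The difference between the 2 responses, the interaction of line and inducer, was 1.80 ± 0.611 log2 for AKR1C1, 1.21 ± 0.382 for HMOX1, 0.61 ± 0.233 for NQO1 and 0.38 ± 0.129 for NFE2L2. None of the 9 passed the threshold in this comparison, where 0.0225% of all genes did (0.0113% as higher and 0.0113% as lower). With the replicate block within each line these 4 passed, at 1.73 ± 0.196, 1.17 ± 0.156, 0.62 ± 0.123 and 0.39 ± 0.105 log2, where 14% of all genes passed (6.98% as higher and 7.06% as lower). GCLC (0.28 ± 0.151), TXNRD1 (0.26 ± 0.196), SLC7A11 (0.20 ± 0.372), GCLM (0.03 ± 0.19) and SRXN1 (-0.18 ± 0.14) passed in neither fit.

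Without inducer, NS1 against WT cells called 2 of the 9 genes, both higher in NS1 (HMOX1 and SRXN1), where 12.5% of all genes were called in either direction, 5.45% as higher and 7.05% as lower. Ranges did not overlap for 4 genes, with HMOX1, GCLC and SRXN1 higher and NFE2L2 lower in NS1, where 31% of all genes had no overlap, 14.8% as higher and 16.2% as lower. The median log2 difference of the 9 genes was 0.28, against 8.83e-05 over all genes. Without replicate 1 in every group 6 genes were called, with NQO1, HMOX1, TXNRD1, SRXN1 and AKR1C1 higher and SLC7A11 lower in NS1, among 3466 genes called in all. Without replicate 2 or without replicate 3 none of the 9 was called. As the calls over all genes changed with the libraries left out too, nothing is read from these counts. The untreated NS1 libraries also enter the inducer comparison in NS1 cells, so the counts of these comparisons are not independent.

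**Figure D3:**
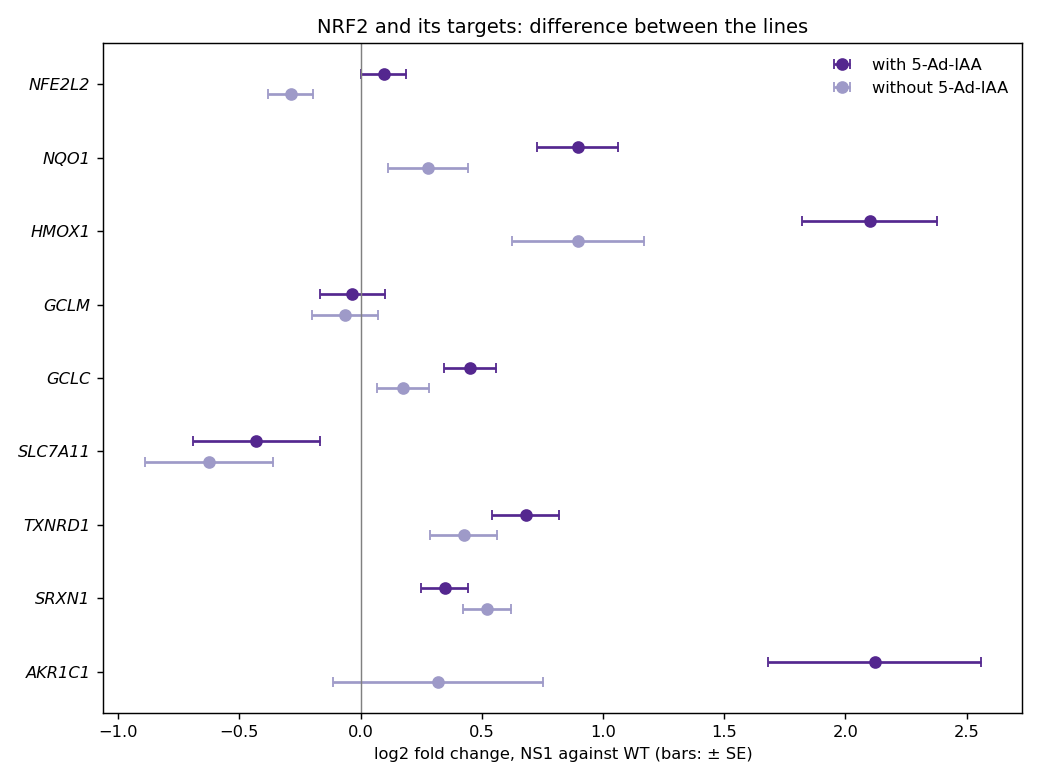
Log2 fold change of NS1 against WT cells (x axis, bars ± SE) for NFE2L2 and 8 targets (y axis), with and without 5-Ad-IAA. With the inducer HMOX1 (2.10) and AKR1C1 (2.12) lie more than 2 log2 units to the right, while SLC7A11 lies to the left of 0 in both comparisons (-0.43 and -0.63).

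With inducer, 6 of the 9 genes were called higher in NS1 than in WT cells and none lower, where 28.2% of all genes were called in either direction and 13.6% as higher. The lower calls made up 14.5%. The log2 differences were 2.12 ± 0.438 for AKR1C1, 2.10 ± 0.278 for HMOX1, 0.90 ± 0.166 for NQO1, 0.68 ± 0.139 for TXNRD1, 0.45 ± 0.106 for GCLC and 0.35 ± 0.0988 for SRXN1. Values for the others were 0.09 ± 0.0912 for NFE2L2, -0.03 ± 0.135 for GCLM and -0.43 ± 0.263 for SLC7A11. Ranges did not overlap for 7 genes, all higher in NS1 (these 6 and NFE2L2), where 43.4% of all genes had no overlap, 21.2% as higher. The treated NS1 libraries also enter the inducer comparison in NS1 cells, so the counts of the 2 comparisons are not independent. The count was 2 without replicate 2 (NQO1 and HMOX1) and 1 without replicate 3 (HMOX1). Calls over all genes also changed when replicates or libraries were left out, as given at the end, so nothing is read from these counts.

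The wider pathway was followed with a list of 55 other genes in 7 roles, of which 52 were tested. This list was also chosen with earlier results of these data known. Its counts and adjusted p-values in comparisons that hold NS1 libraries are therefore descriptions, and nothing is read from them. With the inducer in NS1 cells 10 of the 52 rose and none fell, where 2.76% of all genes were called higher and 3.39% lower. Of the 52, 42 had a log2 fold change above 0, and the median was 0.22, against 0.006 over all genes. With the replicate block within each line 25 rose and 1, MAFF, fell, where 13% of all genes passed as higher and 12.8% as lower. Without replicate 1 in every group the counts were 19 and 1, without replicate 2 or replicate 3 no gene passed, and leaving out 1 NS1 library at a time left 6 to 9. In WT cells none of the 52 was called and the median was 0.01.

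Carbonyl, quinone and xenobiotic enzymes held 5 of the 10 calls in NS1 cells, from 14 tested genes, with a median log2 fold change of 1.02. AKR1C3, which reduces steroids and prostaglandins, had CPM of 13.8, 7.21 and 11.1 in untreated WT, 11.3, 10.4 and 9.28 in treated WT, 9.81, 10.1 and 12.2 in untreated NS1, and 33.1, 25.9 and 34.9 in treated NS1 cells. Its treated NS1 libraries stood above the other 9, and it rose by 1.55 ± 0.203 log2 (edgeR adjusted p = 0.00229). AKR1C2 rose by 1.5 ± 0.409 (edgeR adjusted p = 0.0466), a call kept in 1 of 6 fits that left out 1 NS1 library (adjusted p up to 0.187). It was followed by EPHX1, the microsomal epoxide hydrolase, which rose by 1.08 ± 0.186 (edgeR adjusted p = 0.00686). TRIM16, a ubiquitin ligase linked to NRF2, had 6.53 to 8.12 CPM in the 6 WT libraries, 9.75, 9.81 and 7.89 in untreated and 20, 22.2 and 21.6 in treated NS1 cells and rose by 1.21 ± 0.13 (edgeR adjusted p = 0.00129). TRIM16L also rose by 1.21 ± 0.175 (edgeR adjusted p = 0.00335), and as it is a near-copy of part of TRIM16 the 2 could share reads. ALDH3A1, an aldehyde dehydrogenase, had CPM of 0.617, 1.24 and 0.866 in untreated and 2.86, 4.89 and 8.3 in treated NS1 cells, a log2 fold change of 2.54 ± 0.81 that did not pass (edgeR adjusted p = 0.0833) and did pass with the block within each line (2.46 ± 0.258, edgeR adjusted p = 8.99e-06).

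For NADPH supply, on which NQO1, TXNRD1 and glutathione reductase draw, 2 genes are described. ME1, the cytosolic malic enzyme, had CPM of 24.6, 25.7 and 23.9 in untreated WT, 24.7, 24.6 and 21.6 in treated WT, 22.5, 17.7 and 21.4 in untreated NS1, and 35.5, 28.3 and 32.1 in treated NS1 cells. Its treated NS1 libraries lay above the other 9, and with the inducer it rose by 0.64 ± 0.123 log2 in NS1 cells (edgeR adjusted p = 0.0103). IDH1, the cytosolic isocitrate dehydrogenase, rose by 0.33 ± 0.09 (edgeR adjusted p = 0.0449), a call that was lost in 6 of 6 fits that left out 1 NS1 library (adjusted p from 0.0685 to 0.147). The ME1 call was kept in 5 of 6 (up to 0.0526). IDH1 was 0.48 log2 lower in untreated NS1 than in untreated WT cells (edgeR adjusted p = 0.00448).

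In the haem and iron role FTH1, the heavy chain of the iron store ferritin, was the gene called with the inducer in NS1 cells, 1 of 5 tested. Its CPM were 3120, 4650 and 6070 in untreated WT, 3330, 4850 and 4990 in treated WT, 5350, 5980 and 6130 in untreated NS1, and 13300, 11600 and 13400 in treated NS1 cells. The treated NS1 libraries exceeded all others, and FTH1 rose by 1.13 ± 0.212 log2 (edgeR adjusted p = 0.00912). FTL, the light chain, had 0.69 ± 0.204 (edgeR adjusted p = 0.0616), which did not pass, and 0.69 ± 0.101 with the block within each line, which did (edgeR adjusted p = 0.000156). BLVRA, which reduces the biliverdin that HMOX1 makes, did not move with the inducer past the threshold in NS1 cells (0.02 ± 0.163, edgeR adjusted p = 0.965) and was 0.92 log2 lower in untreated NS1 than in untreated WT cells (edgeR adjusted p = 0.00315).

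In the glutathione role GPX4, which reduces lipid peroxides, rose by 0.57 ± 0.127 log2 in NS1 cells (edgeR adjusted p = 0.0194) and was the 1 call among 8 tested genes, kept in 2 of 6 fits that left out 1 NS1 library (adjusted p up to 0.0879). ABCC3, a pump of conjugates, did not pass there (edgeR adjusted p = 0.104). It did pass with the block within each line (1.89 ± 0.115 log2, edgeR adjusted p = 7.26e-08). SLC3A2, the heavy chain that pairs with SLC7A11, was 0.83 log2 lower in untreated NS1 than in untreated WT cells (edgeR adjusted p = 0.0179). None of the 5 other thioredoxin genes was called with the inducer in NS1 cells, and their median was 0.08.

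**Figure D4:**
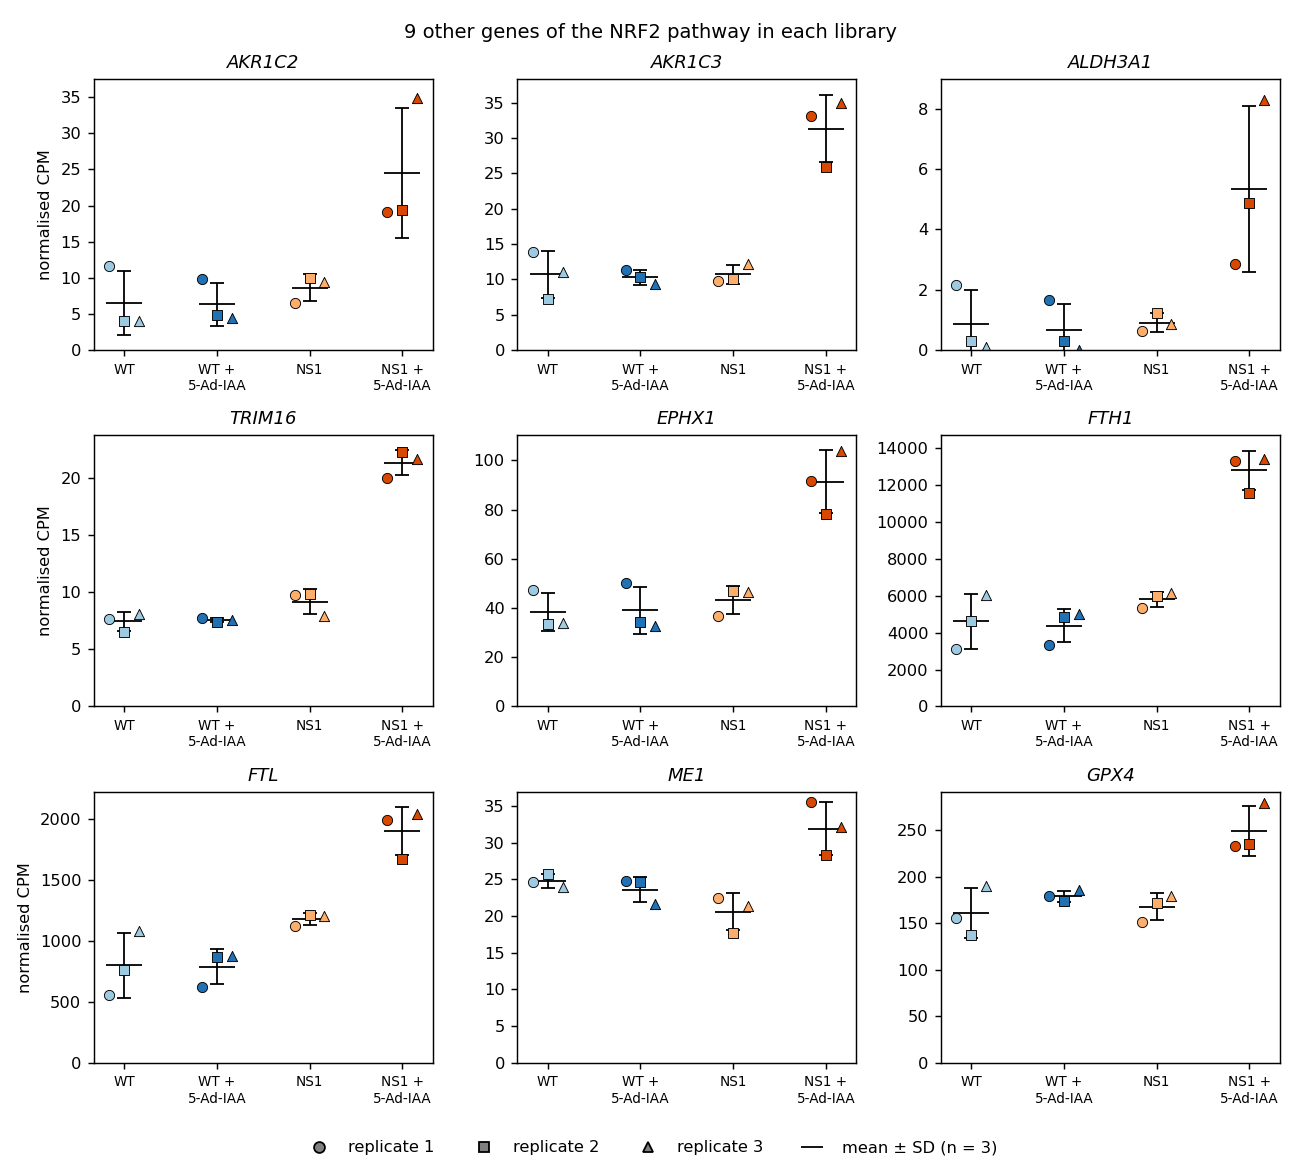
Normalised CPM (y axes, linear from 0) of 9 genes of the wider pathway in each of the 12 libraries by group (x axes); symbols are replicates and bars the mean ± SD (n = 3). For TRIM16 the treated NS1 libraries (20 to 22.2 CPM) and for FTH1 (11600 to 13400 CPM) stand above all others, and for ME1 they lie between 28.3 and 35.5 CPM.

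The genes that control NRF2, and its partners and competitors, had no call with the inducer in NS1 cells. This was 0 of 7 and 0 of 7, where 6.15% of all genes were called in either direction. Under the within-line block, 3 genes of these roles passed (SQSTM1, NFE2L3 and MAFF), where 25.9% of all genes passed. Nothing is read from this count, and SQSTM1 and NFE2L3 were named after their values were seen. SQSTM1, an autophagy receptor that binds KEAP1, had CPM of 361, 533 and 674 in untreated WT, 334, 571 and 586 in treated WT, 553, 753 and 752 in untreated NS1, and 1060, 1100 and 1200 in treated NS1 cells. Its treated NS1 libraries lay above all others. The log2 fold change was 0.71 ± 0.234 (edgeR adjusted p = 0.0944), and 0.72 ± 0.0867 with the block (edgeR adjusted p = 2.93e-05). NFE2L3, a relative of NRF2, had 0.46 ± 0.0833 with the block (edgeR adjusted p = 0.000823, and 0.399 without it). KEAP1 had 72.1, 63.8 and 71.7 CPM in untreated WT, 73.9, 70.2 and 64.7 in treated WT, 63.9, 76.9 and 75.5 in untreated NS1 and 62.2, 73.7 and 75 in treated NS1 cells, and its log2 fold change with the inducer in NS1 cells was -0.04 ± 0.111 (edgeR adjusted p = 0.904). BACH1 gave 0.02 ± 0.253 (edgeR adjusted p = 0.978) and the small MAF gene MAFG -0.17 ± 0.223 (edgeR adjusted p = 0.737). MAFF, another small MAF, had CPM of 18.6, 50.8 and 51.2 in untreated WT, 18.9, 57.1 and 52.5 in treated WT, 13.8, 31.4 and 28.4 in untreated NS1, and 10.3, 20.7 and 18.3 in treated NS1 cells. Replicate 1 was far below its partners in every group. Its log2 fold change with the inducer in NS1 cells was -0.59 ± 0.47 (edgeR adjusted p = 0.547), and with the block within each line -0.56 ± 0.0887 (edgeR adjusted p = 0.000329).

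Between the lines without inducer, 5 of the 52 pathway genes were lower in NS1 cells and none higher, where 7.05% of all genes were called lower and 5.45% higher. The 5 were CBR3 (-0.93 log2, edgeR adjusted p = 0.00757), BLVRA, SLC3A2, IDH1 and CBR1 (-0.34, edgeR adjusted p = 0.0282). CBR1 and CBR3 are carbonyl reductases. In fits that left out 1 untreated library the call was kept in 2 of 6 for CBR1 (adjusted p up to 0.0912), in 4 of 6 for SLC3A2 (up to 0.0676) and in 6 of 6 for the other 3. Without replicate 1 in every group the count was 10 lower and 7 higher, and without replicate 2 or replicate 3 none of the 52 passed. With inducer 18 were higher and 6 lower in NS1 cells, where 13.6% of all genes were called higher and 14.5% lower. The higher ones included ALDH3A1 (2.76, edgeR adjusted p = 0.0212), ABCC3, a pump of glutathione and glucuronide conjugates (2.64, edgeR adjusted p = 0.0107), AKR1C2 (1.90, edgeR adjusted p = 0.0043) and FTL (1.27, edgeR adjusted p = 0.000656). ABCC3 and ALDH3A1 were higher in treated WT replicate 1 than in its partners, and without that library their log2 differences were 4.13 and 4.95. For ALDH3A1 the remaining treated WT libraries lay near the floor, with no count in replicate 3, so the size of its difference is not well determined. Of the 6 fits that left out 1 treated library, ABCC3 was called in 6 and ALDH3A1 in 3 (adjusted p up to 0.0802). MAFF was lower in NS1 cells (-1.39 log2, edgeR adjusted p = 0.0408), a call kept in 1 of 6 such fits (up to 0.143). The counts of higher and lower genes were 8 and 1 without replicate 2, and 11 and 3 without replicate 3. In the interaction none of the 52 was called, and with the block within each line 20 were higher and 1, MAFF (-0.63 ± 0.118, edgeR adjusted p = 0.00237), was lower in NS1, where 6.98% of all genes passed as higher and 7.06% as lower.

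**Figure D5:**
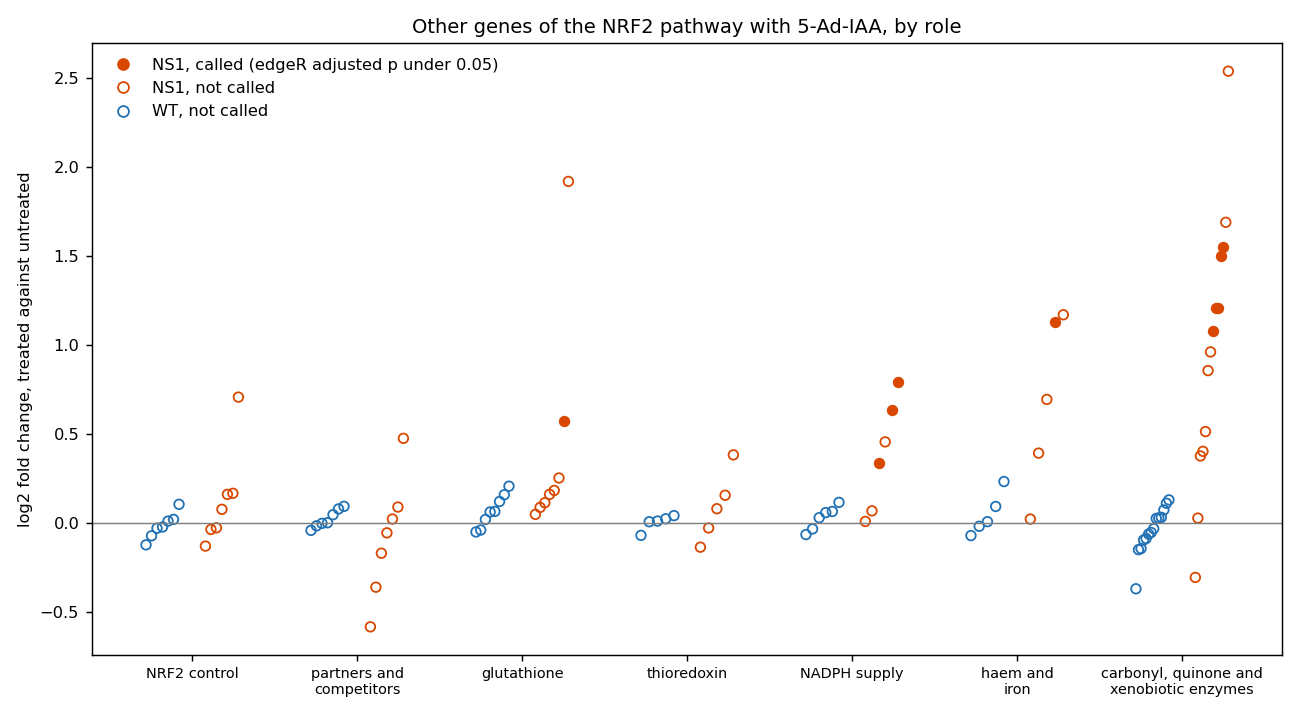
Log2 fold change with 5-Ad-IAA (y axis) of the 52 tested pathway genes, by role (x axis), in NS1 and WT cells; filled points passed an edgeR adjusted p under 0.05. The filled NS1 points lie between 0.33 and 1.55, and 5 of the 10 belong to the carbonyl, quinone and xenobiotic enzymes.

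Targets of other regulators that share genes with NRF2 were counted for comparison. Of 16 ATF4 targets, a list that holds SLC7A11 and SLC3A2, none was called with the inducer in NS1 cells and the median was -0.06. Without inducer 5 of them were lower and 1 higher in NS1 than in WT cells, with a median of -0.68, where 7.05% of all genes were called lower and 5.45% higher. Of 7 targets of the aryl hydrocarbon receptor 4 were tested, and NQO1 was the 1 called in NS1 cells, where 2.76% of all genes were called higher. The median log2 fold change of the 4 was 0.875, with 3 above 0, against 0.006 over all genes. This list holds ALDH3A1 as well as NQO1.

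Across the 12 libraries the targets did not move as 1 block. NQO1 correlated with AKR1C1 (Pearson r = 0.891 of log2 CPM), GCLC (0.89), TXNRD1 (0.864) and HMOX1 (0.722), less with NFE2L2 (0.399) and SRXN1 (0.376), and negatively with SLC7A11 (-0.385) and GCLM (-0.577). The genes most like NQO1 among the 17774 others tested were CTSH (0.983), EPS8L2 (0.972), GDE1 (0.969), ERV3-1 (0.963) and ENSG00000261067 (0.962). CTSH, the lysosomal cathepsin H, had 9.28 ± 3.12 CPM in untreated and 27.0 ± 8.84 in treated NS1 cells (SD, n = 3), and GDE1 had 70.3 ± 7.11 and 89.6 ± 10.7. AKR1C1, the nearest of the other NRF2 genes, ranked 166. These are descriptions over 12 libraries that share 2 lines, 1 inducer and their replicate numbers.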

How the data were processed

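Poly(A) RNA of 12 T24 libraries was sequenced in 4 groups of 3. The deposited file is 1 table of raw counts, in which each column is a library and each row a gene; the values are whole numbers and carry no scaling by the authors. Per the submitters' processing notes, STAR 2.7.3a, featureCounts 1.6.4 and hg38 were used. The annotation release and the strand setting are not given in the sources used here, so overlapping and antisense genes could share reads. NQO1, for example, overlaps AC092115.2 on the other strand by 575 exon bases.

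From these, edgeR 4.0.16 (R 4.3.3) gave a quasi-likelihood fit after filterByExpr and TMM, in which each of the 4 groups had its own mean; tests were two-sided, with Benjamini-Hochberg adjustment over 17775 genes and calls at an adjusted p under 0.05. The script was tested on simulated data. Alternatives were other scalings and filters, the compared groups alone, DESeq2 1.42.0, replicate blocks, and leaving out replicates or libraries. The named genes are the 10 members, KEAP1, BACH1, MAFG and MAFF, up to 10 called genes of the pathway list with the largest change per comparison, and the 5 genes most like NQO1 by Pearson r of log2 CPM (prior count 2). ALDH3A1, ABCC3, FTL, BLVRA, SQSTM1 and NFE2L3 are also named in the inducer comparison in NS1 cells, which did not call them, and were chosen there after their values were seen. A gene of the pathway list that this rule names is not reported here. The members and lists were chosen with earlier results of these data known.

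Deviations from the group means of same-numbered treated and untreated libraries correlated at 0.713, 0.386 and 0.384 in NS1 cells. In WT cells the correlations were 0.752, 0.385 and 0.256. On this ground the numbers were taken to pair these libraries. Libraries of different numbers were not compared in this way, and replicate 1 lay apart from the others. The correlations therefore do not establish a pairing of the other replicates, which the fits with the block assume. The block within each line is given beside genes named in the inducer comparisons whose call it changes there. For the interaction it is given by counts, the NRF2 genes, MAFF, ALDH3A1 and UGT1A6. The labels do not say what a number marks. No 2 libraries of a group agreed within sampling noise (lowest chi-square per degree of freedom 3.03).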

Additional observations from a re-analysis of the deposited data

Results flagged for a closer look

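Among the genes named by the rule, 3 had opposite signs of change with the inducer in all same-numbered NS1 and all WT pairs. Their WT ratios were 0.888, 0.995 and 0.871 for HMOX1 and 1.01, 1.12 and 1.02 for MAFF, several of them near 1. No gene of the table passed the threshold in WT cells. The difference of the 2 responses was 1.21 ± 0.382 log2 for HMOX1 (higher in 3 of 3 NS1 and 0 of 3 WT pairs). It was -0.68 for MAFF (edgeR adjusted p = 0.772, higher in 0 of 3 NS1 and 3 of 3 WT pairs), and -0.63 ± 0.118 with the replicate block within each line (edgeR adjusted p = 0.00237). For ALDH3A1 it was 2.91 (edgeR adjusted p = 0.345, higher in 3 of 3 NS1 and 0 of 3 WT pairs), and 2.83 ± 0.451 with that block (edgeR adjusted p = 0.000803). Its WT ratios were 0.771, 0.988 and 0, the last because that treated library held no ALDH3A1 count. The direction in the last 2 WT pairs thus rests on a ratio near 1 and on a library without counts. None of the 3 differences passed without the block. UGT1A6, outside that rule and named after its values were seen, was also higher in 3 of 3 NS1 and 0 of 3 WT pairs. Its difference was 1.85 (edgeR adjusted p = 0.546), and 1.83 ± 0.438 with the block (edgeR adjusted p = 0.0119). All of these genes were picked by the direction of the same pairs that the block compares, so nothing is read from their p-values with it.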

How the results depend on the processing

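Counts of called genes depended on how the replicates were treated more than on the scaling. With the inducer in NS1 cells edgeR called 1093 genes and 4 of the 9 tested NRF2 genes. These were 1801 genes without the low-count filter, 2421 with a replicate block of 1 term per number and 4596 with the block within each line, 2 NRF2 genes with library totals as scaling and 2 with only the compared groups in the fit, and 0 to 2021 genes and 0 to 3 NRF2 genes when a replicate or library was left out. In WT cells 0 genes were called under all alternatives run. For NS1 against WT without inducer the 2222 genes and 2 NRF2 genes became 3908 and 5 with the replicate block (NFE2L2, SLC7A11 and TXNRD1 were added), 4 NRF2 genes without the filter and 4 with DESeq2, and 182 to 3466 genes and 0 to 6 NRF2 genes with a replicate or library left out. The numbers were not taken to pair libraries between the lines, where the correlations of same-numbered deviations were 0.136, 0.0719 and 0.19 without and 0.153, 0.12 and 0.00601 with inducer. With inducer 1632 to 6007 genes (5007 with all libraries) and 1 to 6 NRF2 genes (6) were called with a replicate or library left out. The interaction called 4 genes and 0 NRF2 genes, and 7 genes with RLE scaling, 33 with at least 10 counts in every library, 683 (2 NRF2 genes) without the filter, 377 (1) with DESeq2, 634 with 1 block term per number, 2495 (4) with the block within each line, and 0 to 573 (0 to 2) with a replicate or library left out. Beyond those given in the report, the block within each line changed no call of the 9 tested NRF2 genes.

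Signs changed for log2 fold changes near 0. With library totals as scaling, BACH1 with the inducer in NS1 cells was -0.0368, KEAP1 between the treated lines -0.0694, and the interaction -0.0254 for GCLM and -0.0231 for BACH1. In WT cells SRXN1 with the inducer was 0.00272 with RLE scaling, 0.000428 without the filter, 0.00449 with DESeq2 and 0.00269 with the block within each line, and BACH1 was 0.00174 with RLE scaling and 0.0029 with DESeq2. Leaving out a replicate or library gave these ranges of log2 fold changes with the inducer in NS1 cells: BACH1 -0.102 to 0.142, GCLM -0.229 to 0.043, KEAP1 -0.118 to 0.0434 and SLC7A11 -0.0517 to 0.208. In WT cells they were NQO1 -0.0353 to 0.137, AKR1C1 -0.703 to 0.633, KEAP1 -0.0509 to 0.0852, SLC7A11 -0.33 to 0.267, TXNRD1 -0.115 to 0.0964, SRXN1 -0.0659 to 0.0452, BACH1 -0.249 to 0.282, MAFG -0.248 to 0.194, NFE2L2 -0.057 to 0.037, MAFF -0.263 to 0.46 and HMOX1 -0.337 to 0.111. Between the untreated lines they were GCLM -0.288 to 0.0758, AKR1C1 -0.109 to 1.32 and KEAP1 -0.0403 to 0.172, and between the treated lines GCLM -0.158 to 0.0592 and KEAP1 -0.0781 to 0.141. For the interaction they were GCLM -0.095 to 0.177, SLC7A11 -0.188 to 0.409, KEAP1 -0.128 to 0.0332, BACH1 -0.263 to 0.293 and MAFG -0.367 to 0.0759. The cause was not tested. The alternatives for the pathway list's counts were added after seeing the data. Fits without a replicate number hold 2 libraries a group, and where 1 library was left out its group's other 2 were assumed to vary like the other groups. AKR1B10 was at or near 0 in all libraries, and a difference was not detectable at this depth.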
